A study of Homo sapiens with 6 samples.

Results

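The S100 family of small calcium-binding proteins was examined in A375, a line of human melanoma cells, by bulk RNA sequencing. The 10 genes S100A1, S100A2, S100A3, S100A4, S100A6, S100A10, S100A11, S100A13, S100A16 and S100B were taken by symbol from the 58302 gene IDs of the count tables, and all 10 were found. The cells carried either an empty vector (3 libraries) or HMGB2 overexpression (HMGB2OE, 3 libraries). HMGB2 is a DNA-bending chromatin protein, and the comparison asked which transcripts differ when it is raised. Lentivirus and drug selection were used to make the stable cells. Each group was thus 1 transduced line of A375, and the study's reporting form calls the 3 replicates technical. The p-values therefore measure the spread between cell pellets and not between independent transductions. The promoter that drives HMGB2 in the overexpression plasmid was not given in the sources used here.

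S100 proteins are EF-hand proteins. Each carries a pair of EF-hand loops and usually works as a dimer. In most of them, binding calcium opens a surface that holds target proteins such as annexins, myosin heavy chains or p53. Several are also secreted and bind the receptor AGER (RAGE). In melanoma, S100B is a standard diagnostic marker, S100A4 is known for its link to motility and metastasis, and S100A6 is widely expressed. On hg38, 9 of the 10 genes lie on chromosome 1 and 1, S100B, on chromosome 21 (46598604 to 46605208, minus strand). S100A6, S100A4, S100A3, S100A2, S100A16, S100A13 and S100A1 lie within 97.4 kb of each other. S100A10 (151982915 to 151993859) and S100A11 (152032506 to 152047907) lie apart from them on the same chromosome.

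S100A4 was the member with the largest difference. Its mean rose from 10796 (SD 2076, n = 3) to 20296 normalized counts (SD 2832, n = 3), which is 1.88-fold (95% interval 1.51 to 2.34). S100A10, the partner of annexin A2, rose 1.28-fold (95% interval 1.1 to 1.48). No member was called lower, and the abundant members S100A6, S100A16 and S100A11 did not pass the test. Normalized counts are read counts divided by the DESeq2 size factor of the library. Genes count as called where the p-value, after Benjamini-Hochberg adjustment over all genes tested, was under 0.05 in DESeq2.

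The sequences in front of the start sites are shown for S100A4, S100A3 and S100A10, the members with the highest fold changes, and for S100A6, which is close to S100A4 on the chromosome and did not pass the test. They are the 250 bases before the RefSeq start site on GRCh38.p14, all on the minus strand and written 5′ to 3′ in the direction of the gene. Capitals mark matches on either strand to the TATA motif TATAAA, the AP-1 motif TGANTCA and the GC box GGGCGG.
S100A4 (chr1:153545807-153546056): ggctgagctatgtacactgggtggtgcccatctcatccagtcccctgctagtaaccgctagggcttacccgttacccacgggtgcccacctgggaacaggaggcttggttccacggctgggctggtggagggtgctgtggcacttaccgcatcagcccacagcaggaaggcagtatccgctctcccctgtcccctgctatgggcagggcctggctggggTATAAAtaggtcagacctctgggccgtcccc
S100A3 (chr1:153549259-153549508): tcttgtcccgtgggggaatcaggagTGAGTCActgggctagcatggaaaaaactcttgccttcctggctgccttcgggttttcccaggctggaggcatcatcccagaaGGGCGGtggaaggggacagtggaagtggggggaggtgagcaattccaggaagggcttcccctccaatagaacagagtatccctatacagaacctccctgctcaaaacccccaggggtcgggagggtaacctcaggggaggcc
S100A10 (chr1:151993860-151994109): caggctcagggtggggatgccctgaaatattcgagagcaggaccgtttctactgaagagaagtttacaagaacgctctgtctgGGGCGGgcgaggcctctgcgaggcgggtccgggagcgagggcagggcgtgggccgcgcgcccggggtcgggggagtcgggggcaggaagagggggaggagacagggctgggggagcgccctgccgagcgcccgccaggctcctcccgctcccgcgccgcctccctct
S100A6 (chr1:153535992-153536241): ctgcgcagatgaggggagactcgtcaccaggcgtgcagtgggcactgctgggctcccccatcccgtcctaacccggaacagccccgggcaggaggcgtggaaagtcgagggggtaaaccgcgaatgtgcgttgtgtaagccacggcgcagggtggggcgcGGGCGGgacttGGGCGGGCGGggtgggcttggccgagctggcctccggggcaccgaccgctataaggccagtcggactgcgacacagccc

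In the S100A4 window, TATAAA began at position -31 from the start site, and neither of the other motifs was present. TATAAA was found in 10.7% of 35116 such windows in the RefSeq table. Among the members it was also found in 1 window of S100A13, at -29, which was not called. The S100A3 window held TGAGTCA at -225 and a GC box at -142. The AP-1 motif was found in 6.57% of all windows and among the members also in 1 window of S100A2, as TGACTCA at -52. GC boxes were found in 42.6% of windows. S100A10 held 1, at -167, and S100A6 held 3, at -90, -79 and -75, the last pair overlapping. Windows of S100A11, S100A16 and S100A13, which were not called, held GC boxes as well, at -68, -45 and -138. These matches describe the letters in the windows only. Of the 10 members, 9 had at least 1 window in the table.

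Reads assigned to genes numbered between 45925053 and 56755212 per library. As a check of the labels, HMGB2 had 7250, 7729 and 7562 normalized counts with the empty vector and 15095, 16848 and 14609 with HMGB2OE, in the order of replicates 1 to 3 as in all such sentences. It rose by 1.05 on the log2 scale (SE 0.10) and was called over all libraries and under all 14 alternatives. Among 8 melanocyte lineage markers, MITF had between 1381 and 1719 normalized counts, while of the pigment genes TYR, DCT and MLANA stayed at or below 10.8, TYRP1 at or below 21.3 and PMEL between 49.6 and 67 in the column for either strand. SOX10 was listed at 0 there, but had between 32277 and 52279 when the stranded columns were summed, and PMEL had between 1395 and 2178. In the column for either strand RAB27A had 433, 547 and 511 with the empty vector and 592, 597 and 654 with HMGB2OE. Its groups did not overlap, but it was not called (DESeq2 adjusted p = 0.265). The 8 markers summed to between 1886 and 2110 with the empty vector and between 2149 and 2446 with HMGB2OE in the column for either strand, which leaves those reads out. In the stranded columns they summed to between 36456 and 55827 against between 36681 and 45265, so the groups overlapped. The part of these markers in the S100 results was not tested. In the column for either strand, the 5 myeloid markers summed to 502 to 546 with the empty vector and 576 to 723 with HMGB2OE. Most of that was LYZ, with 488 to 521 against 526 to 701. CD14 and ITGAM stayed at or below 7.27 there, and PTPRC was at 0 throughout. From the stranded columns the 5 summed to between 852 and 966 against between 955 and 1225, so the groups overlapped. Which of the 5 held the added reads was not tested. Replicates numbered 3 stood apart in both groups. Of the 10 members, 4 (S100A2, S100A3, S100A4 and S100A6) were highest in replicate 3 of both groups, against 26.7% of all genes tested.

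The levels of the members were compared per exon length, as normalized counts per kilobase of annotated exon. S100A6, also called calcyclin, was highest, with a mean of 72466 over the 6 libraries (range 64539 to 85725), and made up 53.5% of the summed level of the 10 genes. S100A4 followed with a mean of 16433 (9867 to 24893), S100A10 with 15740 (12640 to 17977) and S100A16 with 14430 (13572 to 15551). These 3 neighbours in the order overlapped in range. S100A11 was next, with 11635 (10335 to 13286). The place of S100A4 by group mean differed between groups. With the empty vector its mean was 11413 ± 2194 (SD, n = 3), under S100A16 (14571), S100A10 (13811) and S100A11 (11922), and with HMGB2OE it was 21454 ± 2993, under S100A6 alone. Its empty vector libraries (9867, 10446 and 13924) overlapped in range with those of S100A16, S100A10 and S100A11, so its place there was not resolved.

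**Figure D1:**
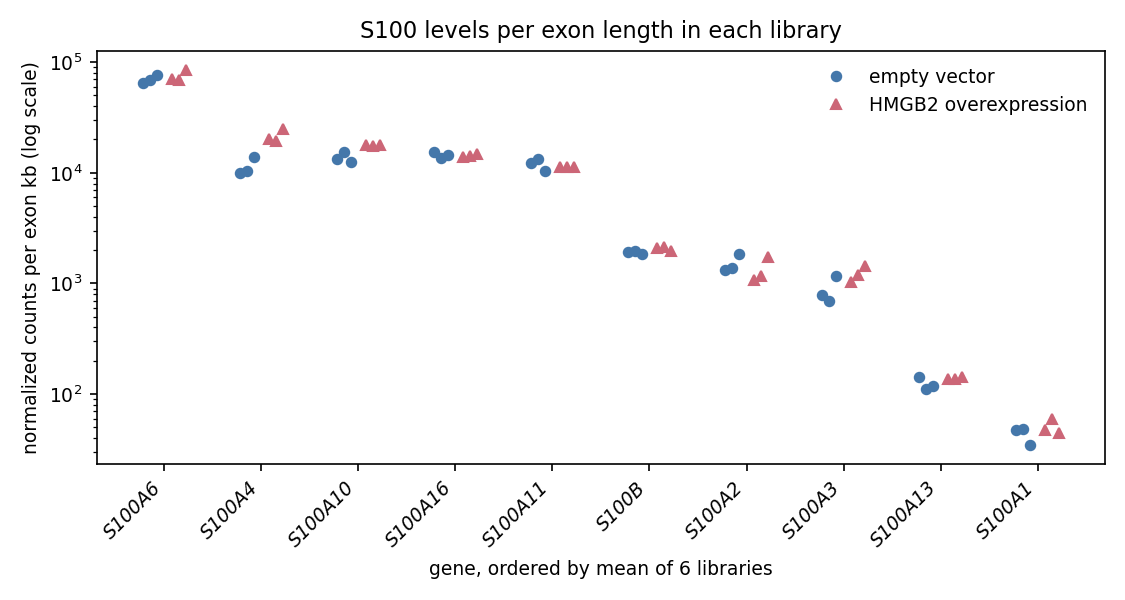
Level of each of the 10 S100 genes in each library, as normalized counts per kilobase of exon on a log axis, with circles for empty vector and triangles for HMGB2OE. S100A6 lies above all others in every library, and S100A4 is the gene whose circles and triangles are farthest apart.

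A step separated these 5 genes from the rest. S100B had a mean of 1981 (1853 to 2127), S100A2 of 1419 (1080 to 1863) and S100A3 of 1055 (700 to 1443) normalized counts per kilobase, each overlapping its neighbour in the order. S100A13 and S100A1 were lowest, with 132 and 47.1, but most of their reads were not counted in the column used, as described further on.

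S100A4 binds non-muscle myosin and moves with the cell's actin cytoskeleton. Its normalized counts were 9334, 9882 and 13172 with the empty vector and 18953, 18385 and 23549 with HMGB2OE. Every HMGB2OE library lay above every empty vector library. On the log2 scale the difference was 0.91 ± 0.16 (SE), with an adjusted p of 2.47e-06 in DESeq2. The exact two-sided permutation p over libraries was 0.1, the smallest that 3 against 3 can give. Leaving out 1 library at a time, changing the test or changing the scaling gave log2 fold changes from 0.79 to 1.08, and S100A4 was called each time.

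S100A4 is also used as a marker of fibroblasts, so the 5 fibroblast markers COL1A1, COL1A2, PDGFRB, DCN and LUM were read beside it. Their summed normalized counts ranged from 3598 to 5532 in empty vector and from 5099 to 6624 in HMGB2OE libraries. None of the 5 was called by DESeq2. The highest of their log2 fold changes was that of COL1A1, 0.52 ± 0.22 (SE), with an adjusted p of 0.208 in DESeq2. DCN lay in the opposite direction, at -0.51 ± 0.21 (SE) with groups that did not overlap and an adjusted p of 0.184 in DESeq2, and COL1A2, PDGFRB and LUM were at 0.26, 0.00 and -0.09. The part of such markers in the S100A4 result was not tested. In bulk RNA a change in the share of cells and a change in RNA per cell cannot be told apart.

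S100A3, whose gene overlaps the span of S100A4 on the same strand, is known from the cuticle of the hair. Its normalized counts were 666, 589 and 983 with the empty vector and 867, 1004 and 1213 with HMGB2OE. Empty vector replicate 3 lay inside the HMGB2OE range. The difference was 0.46 ± 0.21 (SE) on the log2 scale (95% interval 0.06 to 0.87), and S100A3 was not called, at an adjusted p of 0.235 in DESeq2. It was called without empty vector replicate 3, at 0.71 on the log2 scale with an adjusted p of 4.17e-05 in DESeq2. In replicates 1 and 2 alone it was called at 0.58, with an adjusted p of 0.000221 in DESeq2.

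S100A10 differs from the other members in that its loops no longer bind calcium, and it sits with annexin A2 at the plasma membrane. Its normalized counts were 13552, 15586 and 12791 with the empty vector and 17886, 17563 and 18193 with HMGB2OE, so the groups did not overlap. S100A10 was higher by 0.36 ± 0.11 (SE) on the log2 scale, with an adjusted p of 0.0276 in DESeq2. EdgeR's quasi-likelihood test gave 0.35 with an adjusted p of 0.0913 and so did not call it. DESeq2 did not call it without empty vector replicate 1 (adjusted p = 0.349) and without HMGB2OE replicate 1 (0.298), 2 (0.212) or 3 (0.268), with log2 fold changes from 0.33 to 0.37.

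**Figure D2:**
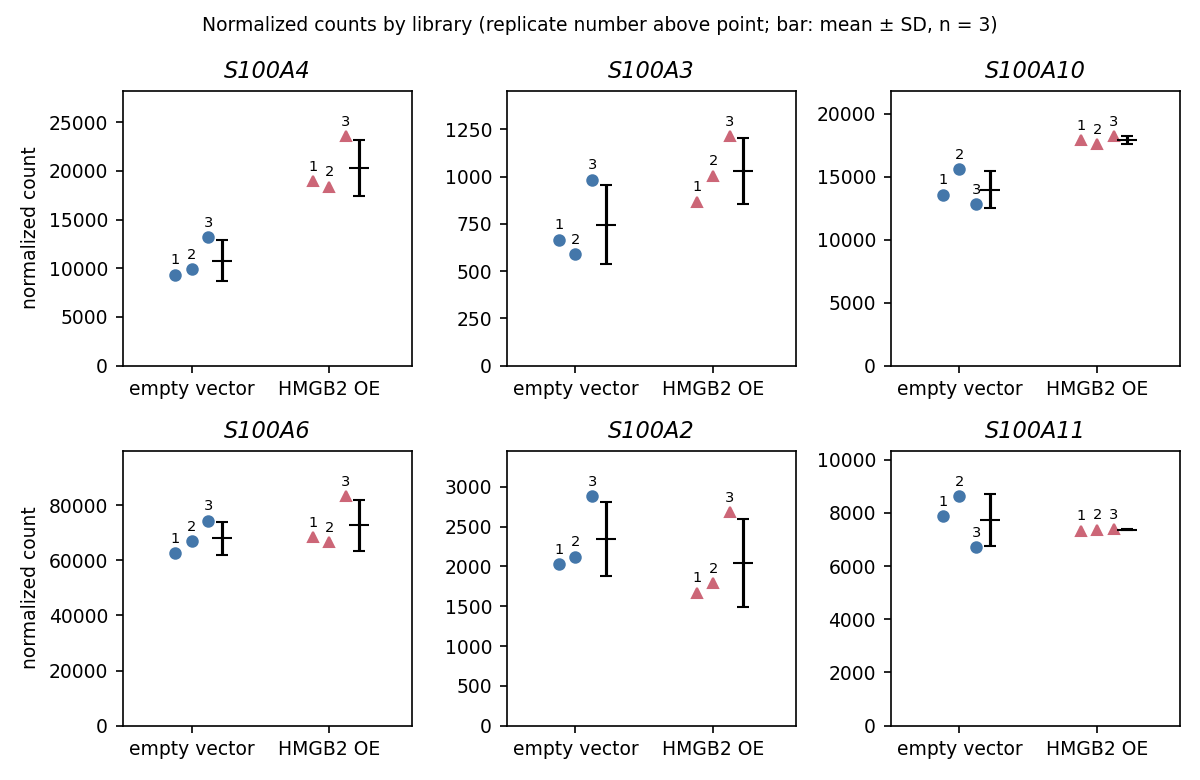
Normalized counts of 6 S100 genes by library, with circles for empty vector, triangles for HMGB2OE, the replicate number above each point, and a bar for mean ± SD of 3 libraries. The groups do not overlap for S100A4 and S100A10, while in S100A3, S100A6 and S100A2 replicate 3 is the highest of each group and the groups overlap.

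The number of calls among the members was read against all genes. The members were chosen with earlier results of these data known, so the shares describe them and are no test. Of the 10 members, 2 (S100A4 and S100A10) were called higher, where 2.29% of 18836 genes tested were. None was called lower by DESeq2, where 2.64% of all genes were, and 3 members had an unadjusted p under 0.05, against 14.3% of all genes. EdgeR called 1 member higher (S100A4) and none lower. The groups did not overlap, with HMGB2OE higher, for 3 members (S100A4, S100A10 and S100B), against 11.1% of all genes. HMGB2OE was lower without overlap for none of the members, against 10.7% of all genes. The median log2 fold change of the members was 0.13, beside 0.00 for all genes tested.

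The share of all genes called higher moved with the fit. It was 1.28% under edgeR, which called 1.52% lower, 2.24% in DESeq2 with TMM factors, 2.75% with a filter of 10 counts in 3 libraries, 1.02% with no independent filter and 2.09% in the sum of the stranded columns. It was 6.09% with the replicate number as a block, 8.71% with a term for the third replicates (8.61% lower) and 8.01% in replicates 1 and 2 alone. Without empty vector replicate 1, 2 or 3 it was 0.839%, 1.09% and 8.31%, and without HMGB2OE replicate 1, 2 or 3 it was 1.04%, 1.15% and 0.941%. S100A3 was thus called in fits that called more genes in general, and S100A10 was not called in 5 of the fits that called fewer, though it was without empty vector replicate 2 and with no independent filter.

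**Figure D3:**
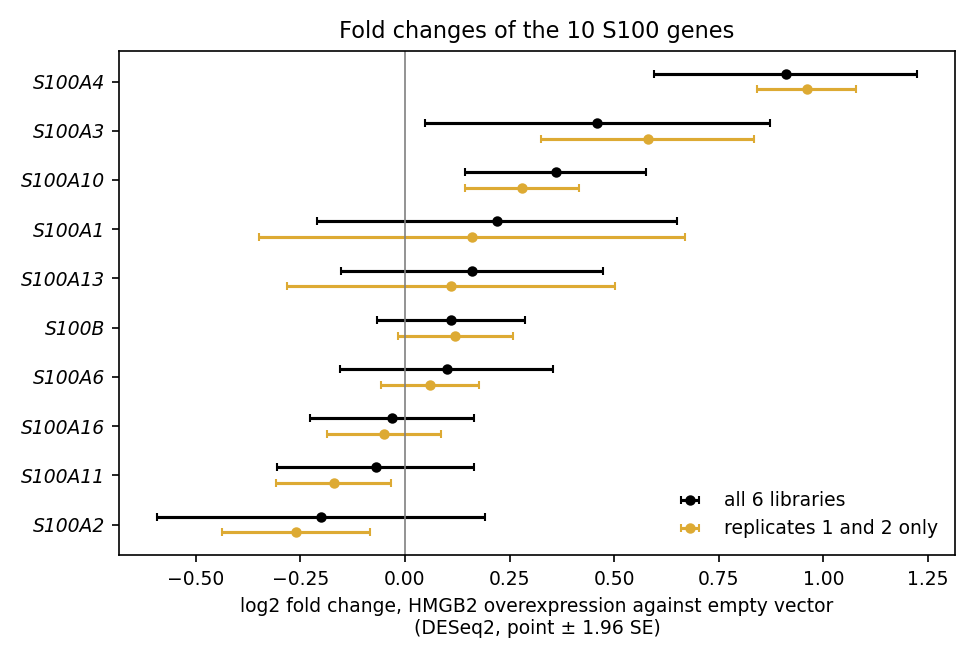
Log2 fold change of each S100 gene, HMGB2OE against empty vector, from DESeq2, with bars for the 95% interval, in all 6 libraries (black) and in replicates 1 and 2 only (yellow). S100A4 is farthest from 0 at 0.91, and the intervals of S100A3 and S100A2 are narrower in replicates 1 and 2 only.

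The remaining members did not pass the test, and their intervals bound the size of a difference. S100A6, which binds CACYBP, had 62667, 66926 and 74465 normalized counts with the empty vector and 68378, 66515 and 83239 with HMGB2OE, a ratio of 1.07 (95% interval 0.899 to 1.27, DESeq2 adjusted p = 0.842). S100A16, a widely expressed member, had between 23085 and 26452 in empty vector and between 23605 and 25074 in HMGB2OE libraries, a ratio of 0.981 (0.86 to 1.12). S100A11, a partner of annexin A1, had 7883, 8623 and 6707 against 7339, 7375 and 7378, a ratio of 0.952 (0.81 to 1.12). For these 3 abundant members a change beyond 1.27-fold lay outside the interval.

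S100B had 3451, 3533 and 3346 normalized counts with the empty vector and 3745, 3841 and 3554 with HMGB2OE. The groups did not overlap, but the ratio was 1.08 (95% interval 0.951 to 1.22) and the gene was not called (DESeq2 adjusted p = 0.7). S100A2, known from basal keratinocytes, had 2028, 2119 and 2879 against 1670, 1790 and 2677. Within each group replicate 3 was highest, and over all libraries the difference was -0.20 ± 0.20 (SE) on the log2 scale, with an adjusted p of 0.774 in DESeq2. In replicates 1 and 2 alone it was called lower, at -0.26 ± 0.09 (SE) with an adjusted p of 0.0246 in DESeq2, where 9.44% of genes were called lower. The sum of 6 keratinocyte markers overlapped between groups, from 4597 to 4971 with the empty vector and from 4549 to 5098 with HMGB2OE. KRT10 made up most of it, with 3816 to 4410. KRT5 had 5.05, 11.5 and 279 normalized counts with the empty vector and 250, 200 and 289 with HMGB2OE, and DSG3 had 4.04, 1.77 and 9.66 against 57.2, 7.88 and 15.8. Both were thus lower with the empty vector in replicates 1 and 2, neither was called over all libraries (DESeq2 adjusted p = 0.797 and 0.0712), and their part in the S100A2 result was not tested.

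Ratios of read counts within a library do not depend on how libraries are scaled, so they were used to compare members with each other. The S100A4 to S100A6 ratio was 0.149, 0.148 and 0.177 with the empty vector and 0.277, 0.276 and 0.283 with HMGB2OE. It was 1.77 times higher on average, and its spread over HMGB2OE libraries was small (SD 0.00355). The S100A10 to S100A11 ratio was 1.72, 1.81 and 1.91 against 2.44, 2.38 and 2.47, or 1.34 times higher. In both the groups did not overlap, with an exact two-sided permutation p of 0.1, the smallest possible.

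**Figure D4:**
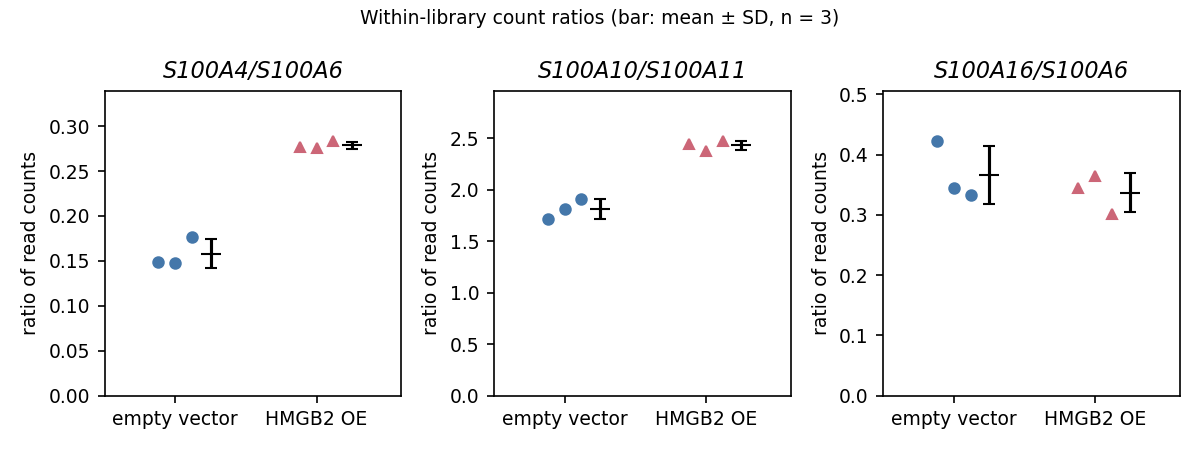
Ratio of read counts of 2 S100 genes within each library, with circles for empty vector, triangles for HMGB2OE and a bar for mean ± SD of 3 libraries. The groups are apart for S100A4 to S100A6 and for S100A10 to S100A11, and overlap for S100A16 to S100A6.

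The S100A3 to S100A4 ratio was lower with HMGB2OE in every library, at 0.0458, 0.0546 and 0.0515 against 0.0713, 0.0596 and 0.0746 (exact permutation p = 0.1). The S100A16 to S100A6 ratio overlapped between groups (exact permutation p = 0.6). The S100A10 to ANXA2 ratio also overlapped, with 0.394, 0.473 and 0.293 against 0.5, 0.476 and 0.415 (exact permutation p = 0.2). The S100A3 to S100A6 ratio overlapped, from 0.0088 to 0.0132 against 0.0127 to 0.0151 (exact permutation p = 0.2). The S100A4 to S100B ratio was 2.7, 2.8 and 3.94 against 5.06, 4.79 and 6.63, or 1.75 times higher (exact permutation p = 0.1). Over these 7 ratios, none could reach an exact p under 0.1.

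S100A1 and S100A13 could be measured only in part. S100A1, best known from heart muscle, lies on the plus strand (153627926 to 153632039). S100A13, which takes part in the export of FGF1, lies on the minus strand (153618787 to 153631360), and the pair share 235 exon bases. The column for either strand leaves out reads that fall on genes of both strands. It held between 1.6% and 1.98% of the S100A1 reads found in the sum of the stranded columns, and between 25.9% and 34.7% of those of S100A13. In that sum S100A1 had 7717, 8368 and 6110 reads with the empty vector and 9590, 9282 and 6594 with HMGB2OE, which set its level per exon kilobase at 2589, above that of S100B. In GENCODE 44, 81.7% of the exon bases of S100A1 are shared with no other gene. The gene models behind the deposited counts are not known and may differ here, and why so few S100A1 reads were kept was not tested.

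The sum of the stranded columns gives a shared read to both genes, so it cannot say which of them a read came from. The lncRNA gene ENSG00000272030 shares a further 320 exon bases with S100A1, and ENSG00000271853 shares 536 with S100A13 on its own strand. In the sum, S100A1 differed by 0.21 ± 0.12 (SE) on the log2 scale, with an adjusted p of 0.446 in DESeq2, and in the column for either strand by 0.22 ± 0.22, with an adjusted p of 0.771. For S100A13 the DESeq2 values were 0.29 ± 0.13 (SE) in the sum, where the groups did not overlap, with an adjusted p of 0.253, and 0.16 ± 0.16 in the column for either strand, with an adjusted p of 0.768. Neither was called. In replicates 1 and 2 alone, a fit chosen after seeing the data, the sum gave a call for S100A1 (log2 fold change 0.23, adjusted p = 0.00535), where 7.07% of genes were called higher. The other 8 members kept between 99.96% and 100% of their stranded reads.

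Binding partners of S100 proteins were read as a list of 22 genes, and 1 was called. SYT1, a synaptic vesicle calcium sensor that joins S100A13 in the export of FGF1, had 1444, 1577 and 969 normalized counts with the empty vector and 892, 775 and 607 with HMGB2OE, with no overlap. It fell by 0.81 on the log2 scale (SE 0.20), at an adjusted p of 0.00328 in DESeq2. The call was absent under edgeR (adjusted p = 0.073) and by DESeq2 without empty vector replicate 1 (0.0605) or 2 (0.0655) or HMGB2OE replicate 3 (0.0558). Over all genes 4.94% were called in either direction. The median log2 fold change of the list was 0.08.

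The partners of the called members did not pass the test over all libraries. ANXA2, which holds S100A10 at the membrane, had a log2 fold change of 0.07 (SE 0.14), and AHNAK, a scaffold of the same complex, of 0.06 (SE 0.18). MYH9, the myosin heavy chain bound by S100A4, had 18735, 19174 and 11525 normalized counts with the empty vector and 13745, 13598 and 11844 with HMGB2OE. Empty vector replicate 3 was lowest there, and MYH9 differed by -0.34 ± 0.19 (SE) on the log2 scale, at an adjusted p of 0.418 in DESeq2. It was called lower without that library, at -0.54 with an adjusted p of 3.5e-07, and in replicates 1 and 2 alone, at -0.47 with an adjusted p of 2e-14. It was also called lower with a term for the third replicates (-0.30, DESeq2 adjusted p = 0.00477) and with the replicate number as a block (-0.30, 0.0196). CACYBP and ANXA1, the partners of S100A6 and S100A11, had 0.06 (SE 0.12) and 0.09 (SE 0.11). FGF1 had 0.48 (SE 0.19, DESeq2 adjusted p = 0.151), with groups that did not overlap. The receptor gene AGER had between 18.6 and 37.4 normalized counts per library and was not called.

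Other EF-hand proteins gave 3 calls among 30 of 32 listed genes that received an adjusted p, where 4.94% of all genes were called. CALB2, which encodes the calcium buffer calretinin, had 970, 1036 and 867 normalized counts with the empty vector and 401, 414 and 477 with HMGB2OE. It fell by 1.16 on the log2 scale (SE 0.14), at an adjusted p of 2.79e-14 in DESeq2, and was called under all 14 alternatives. VSNL1, a neuronal calcium sensor, rose by 0.62 (SE 0.16, DESeq2 adjusted p = 0.00331), and CALM3, a calmodulin gene, by 0.32 (SE 0.10, adjusted p = 0.0258). VSNL1 lost its call without empty vector replicate 1 (DESeq2 adjusted p = 0.141) or 2 (0.0868) or HMGB2OE replicate 1 (0.0772) or 3 (0.106). CALM3 lost it under edgeR (adjusted p = 0.0921) and without any 1 library except empty vector replicate 3 (DESeq2 adjusted p from 0.193 to 0.381). The median of the list was 0.07.

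**Figure D5:**
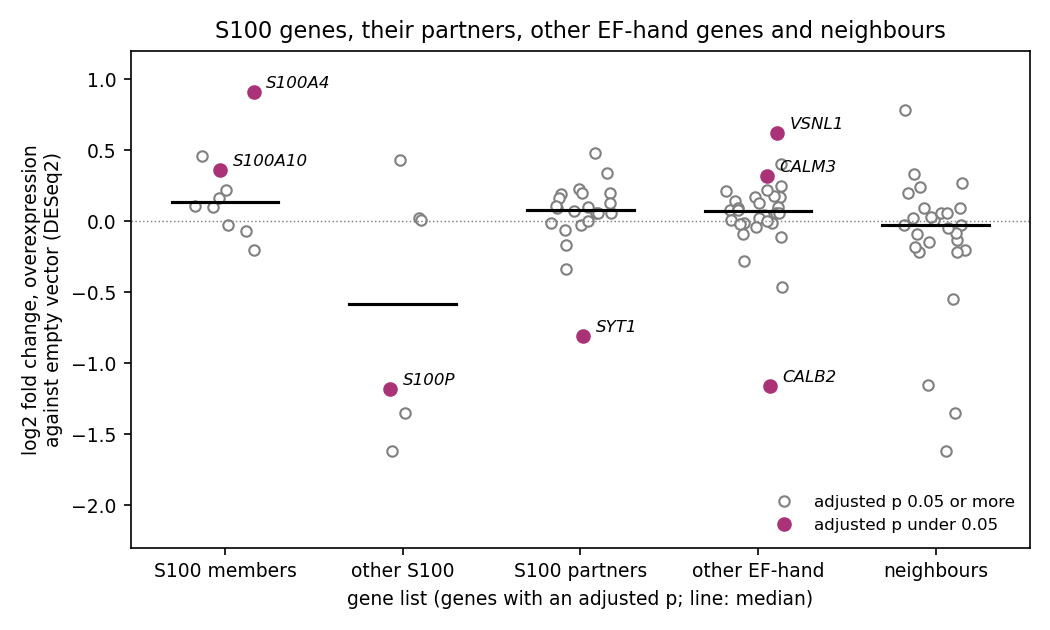
Log2 fold change from DESeq2 of the 10 S100 genes, of other S100 genes, S100 binding partners, other EF-hand genes and genes within 250 kb, with filled points for an adjusted p under 0.05 and a line at each median. S100A4 and S100A10 are filled among the members, and no gene within 250 kb of a member is.

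A further 10 genes of the family stayed at or below 410 normalized counts in the column for either strand, as did the members S100A1 and S100A13. Of the further 10, S100A7A, S100A12 and S100G were listed at 0 in that column (S100A7A had 2 reads over all libraries in the stranded columns), and 6 received an adjusted p. S100P, which lies on chromosome 4 and is known from placenta and epithelial tumours, had 410, 360 and 334 normalized counts with the empty vector and 187, 148 and 152 with HMGB2OE. It fell by 1.18 on the log2 scale (SE 0.18), at an adjusted p of 5.06e-09 in DESeq2. S100P was called under all 14 alternatives, with values from -1.30 to -1.10. S100A5, whose gene lies between S100A6 and S100A4, had between 98.1 and 143 in all libraries, with a log2 fold change of 0.02 (SE 0.23).

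S100A8 and S100A9, which form the secreted calprotectin of myeloid cells and stressed keratinocytes, varied between libraries of the same group. S100A9 had 211, 197 and 27.9 normalized counts with the empty vector and 104, 16.7 and 21.4 with HMGB2OE. S100A8 had 65.7, 61.1 and 5.37 against 41.8, 1.97 and 7.88. Both were high in empty vector replicates 1 and 2 and HMGB2OE replicate 1, and low in the other 3 libraries. Neither was called over all libraries (DESeq2 adjusted p = 0.559 for S100A9 and 0.767 for S100A8). S100A8 was called lower by DESeq2 without HMGB2OE replicate 1.

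Genes near the members were examined to see whether the difference extended along the chromosome. Of 27 genes within 250 kb of a member whose normalized counts averaged at least 10, none was called by DESeq2 or by edgeR, where 4.94% of all genes were called by DESeq2. An unadjusted p under 0.05 was found for 2 of them in DESeq2 and 3 in edgeR, against 14.3% of all genes in DESeq2. In fits that called more genes, PRMT2, which lies near S100B, was called higher with the replicate block, with the term for the third replicates, in replicates 1 and 2 alone and without empty vector replicate 3. PCNT was called lower in the last pair of these, and GATAD2B without empty vector replicate 3. Their median log2 fold change was -0.03. The 27 include S100A5, S100A8, S100A9 and S100A14.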

How the data were processed

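PolyA RNA of 3 empty vector and 3 HMGB2OE A375 samples was sequenced. Per the labels and the study, the authors ran bcl2fastq 2.20, FastQC and Trimmomatic and aligned reads to hg38 with STAR; the aligner version and annotation release are not given in the sources used here. The authors deposited raw counts per gene, unnormalized, for either strand and for each strand alone. The 4 summary lines were left out. The library kit does not mark strand, and the first strand column held 50.1% to 50.2% of both. Ambiguous reads made up 10.7% to 11.4%. Multimapped reads made up 10.6% in HMGB2OE replicate 3 and 2.58% to 4.89% in the other libraries.

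The count for either strand was tested over all genes with DESeq2 1.42.0 in R 4.3.3, default parameters, group alone. Of 58302 IDs, 57532 matched GENCODE 44, which gave symbols, exon lengths and hg38 positions. Intervals of 95% are from the normal quantile and the SE. The authors' annotation may place exons elsewhere, which would change levels per kilobase. Of the 50-base words of a gene's transcripts, 25.7% of S100A13, 13.6% of S100A1 and 2% of S100A11 occur in another gene, and none of the other 7 members. Alternatives were edgeR 4.0.16 with TMM, DESeq2 with TMM factors, a minimum of 10 counts in 3 libraries, independent filtering turned off, both stranded columns summed, a replicate block, a term for the third replicates, replicates 1 and 2 alone, and leaving out each library. The test was checked on simulated data. The members, lists and alternatives were chosen with earlier results of these data known. Named were all members, HMGB2, called genes of each list, and partners of single members. For each called member, the 3 genes of most similar pattern were also named.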

Additional observations from a re-analysis of the deposited data

How the results depend on the processing

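S100A4, S100P, CALB2 and HMGB2 kept their direction and their call under all 14 alternatives. Calls among the S100 members that were higher numbered 2, and 1 under edgeR. Without 1 library at a time they numbered from 1 to 3. None was called lower, but 1 was (S100A2) when a term marked the third replicates, and likewise 1 (S100A2) in replicates 1 and 2 alone. Of the 22 partners 1 was called, against 0 under edgeR, 4 with the replicate block, 5 with the term for the third replicates, 7 in replicates 1 and 2 alone and from 0 to 6 without 1 library. Of the EF-hand genes 3 were called, against 6 with the block, 9 with the term, 12 in replicates 1 and 2 alone and from 1 to 10 without 1 library. The share of all genes called moved with them. It was 4.94% over all libraries, 2.81% under edgeR, 12.5% with the block, 17.3% with the term and 17.4% in replicates 1 and 2 alone. Without empty vector replicate 3 it was 17.8%, and without empty vector replicate 1 it was 1.97%. Signs turned for members near 0. Without 1 library at a time S100A16 ran from -0.08 to 0.02, S100A11 from -0.16 to 0.01 and S100A6 from -0.01 to 0.17 on the log2 scale. The causes were not tested.

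Replicate numbers 1 and 2 did not pair the samples, whereas the libraries numbered 3 went together. Deviations from the group means over 16692 genes correlated between same-numbered libraries at 0.0906, 0.142 and 0.349, the last being the highest of any pair. Empty vector replicate 1 correlated best with HMGB2OE replicate 2 (0.212). Pairs of a replicate 3 with a replicate 1 or 2 of the other group ran from -0.272 to -0.137. A gene's deviations cancel within a group of 3, so these values are tied to that of the third pair and are no separate support. With the replicate number as a block S100A3 was also called (log2 fold change 0.48, DESeq2 adjusted p = 0.00205), which made 3 members called higher.

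S100A1 and S100A13 levels depend on the column and length. Per kilobase of exon not shared with another gene they were 57.7 and 198.7, and in the stranded sum 2589 and 443.9. With 3 libraries of 1 line per group, small differences such as that of S100B were not resolved.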

Other observations

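The genes whose pattern over the 6 libraries was most like that of the called members were looked up among the 13294 genes whose normalized counts averaged at least 50. Likeness was the root-mean-square difference of log2 normalized counts, each gene centred on its own mean. Genes picked this way have fold changes near that of the member by construction. For S100A4 these were LINC01363, a long non-coding RNA on chromosome 1, at 0.0643, SCN2A, a voltage-gated sodium channel, at 0.0676, and PTPRO, a receptor tyrosine phosphatase, at 0.0704. Their log2 fold changes were 0.92, 0.87 and 0.87. For S100A10 they were RGL1 (0.0286), the pseudogene FAM3C2P (0.0307) and HMGA2 (0.0313), which encodes another HMG chromatin protein, with log2 fold changes of 0.39, 0.36 and 0.36. The S100A4 pattern had an SD of 0.545 over libraries and the S100A10 pattern of 0.219, on the log2 scale.

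Among 7 fused-type S100 genes of the epidermis, which lie on chromosome 1 as well, FLG (filaggrin) had between 476 and 675 normalized counts per library and TCHH (trichohyalin) between 25.4 and 39.9. FLG2, HRNR, RPTN, CRNN and TCHHL1 stayed at or below 14.5. Of the 3 that received an adjusted p none was called, and none of them had an unadjusted p under 0.05 by DESeq2 or edgeR.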
